A study of Mus with 8 samples.

Results

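The genes described here mark Schwann cells and peripheral nerves: Sox10, S100b, Cdh19, Mbp, Pmp22, Ngfr, Gfra3 and Ncam1. They were chosen by name, as the probes whose RefSeq accession on the array maps to 1 of these 8 genes, which gave 14 of 56605 probes and 8 of 22911 named genes. Transcripts were measured in 8 whole tumours that grew under the skin of mice after transplantation of Pan02, a mouse pancreatic cancer line. Of these tumours 4 came from Mutant hosts, which carry Ext1 flox/flox alleles and an S100a4-Cre transgene, and 4 came from Control hosts, which are wild type (labelled B6). Ext1 encodes a polymerase of heparan sulfate chains. The S100a4 promoter is active in fibroblasts and also in some immune and other mesenchymal cells, and the engineered alleles belong to the host and not to the transplanted cells. Tumours of both groups were removed after 36 to 40 days, no other treatment is given in the labels, and host age and sex are not stated there.

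Schwann cells are the glia of peripheral nerves. They wrap large axons in myelin, ensheath bundles of small axons without myelin, and after injury change to a repair state that guides regrowing axons. Pancreatic cancer is known for growing along nerves, and ligands of the GDNF family and neuregulins bind heparan sulfate, the sugar that Ext1 makes. The comparison of Mutant with Control tumours asks whether transcripts of this nerve compartment differ when host cells of the S100a4 lineage lose Ext1.

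Each tumour was hybridised to 1 array, and the scanner software marked 61.5% to 67.2% of probes per array as well above background. A level is the log2 of a probe's signal over the 75th percentile signal of its array, so that 0 is that percentile, and a difference is Mutant minus Control. Control 4 had the largest share of probes well above background, 67.2%. It also had the lowest 75th percentile signal, 575.9, against 665.4 to 740.7 on the other arrays. The part of this in the levels of Control 4 was not tested. A gene was tested if it had a probe well above background on at least 4 of the 8 arrays, and of several such probes the one of highest mean stands for the gene. Over 16067 genes with a value in all tumours, Control 4 was the lowest of the 8 tumours in 5654, and no other tumour was the lowest in more than 2166. Control 4 was the highest tumour in 22.4% of these genes and Control 3 in 25.3%. The difference of each tested nerve gene is also given without Control 4, and that of other genes where leaving it out moved the value by more than 1.5 times. Keratins of simple epithelia (Krt8, Krt18 and Krt19) were measured in these tumours, while the epithelial adhesion gene Epcam was well above background on none of the 8 arrays.

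No Schwann cell or nerve gene was called different between Mutant and Control tumours, and most of these genes had their highest level in 1 tumour, Control 4. Of the 8 genes 7 passed the filter and 0 were called higher or lower (limma adjusted p = 1 for each), beside a background of 0% called higher and 0% called lower over all 16068 genes. At an unadjusted p under 0.05, 0 of the 7 passed, against 2.91% of all genes, and the groups overlapped in all 7, against 1.42% of all genes without overlap. None of the 7 differed by 2-fold or more, against 2.79% of all genes. Their differences were below 0 for 5 genes and above 0 for 2, beside 47.6% of all genes below 0 and 52.4% above, with a median of -0.21, beside 0.01 over all genes. Without Control 4, 5 were above 0 and the median was 0.15, beside -0.02 over all genes. In whole tumours, fewer cells of a type and less RNA per cell cannot be told apart.

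Sox10, the transcription factor that glia of the neural crest need throughout their life, had the smallest SD in Mutant tumours among the 7 measured nerve genes. It read -4.03, -3.71, -4.07 and -3.77 in Mutant 1 to 4, against -3.99, -3.84, -4.40 and -2.52 in Control 1 to 4. All 4 Mutant tumours lay inside the Control range, and Control 4 was 1.20 log2 units above the next tumour. The group means were -3.90 ± 0.18 in Mutant and -3.69 ± 0.82 in Control tumours (SD, n = 4 each). They differed by -0.21 (95% interval -1.08 to 0.66, two-sided exact permutation p = 0.83). Without Control 4 the Sox10 difference was 0.18 (-0.23 to 0.59). Sox10 is also a gene of melanocytes, and of 9 melanocyte markers 5 were measured. Their list level, the mean over the markers of the log2 signal minus each marker's own mean over the 8 tumours, lay between -0.21 and 0.14 in Mutant tumours and between -0.17 and 0.39 in Control tumours, where Control 4 was the highest. The pigment genes Tyrp1, Slc45a2 and Oca2 were well above background on none of the arrays. The part of melanocytes in the Sox10 signal was not tested.

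**Figure D1:**
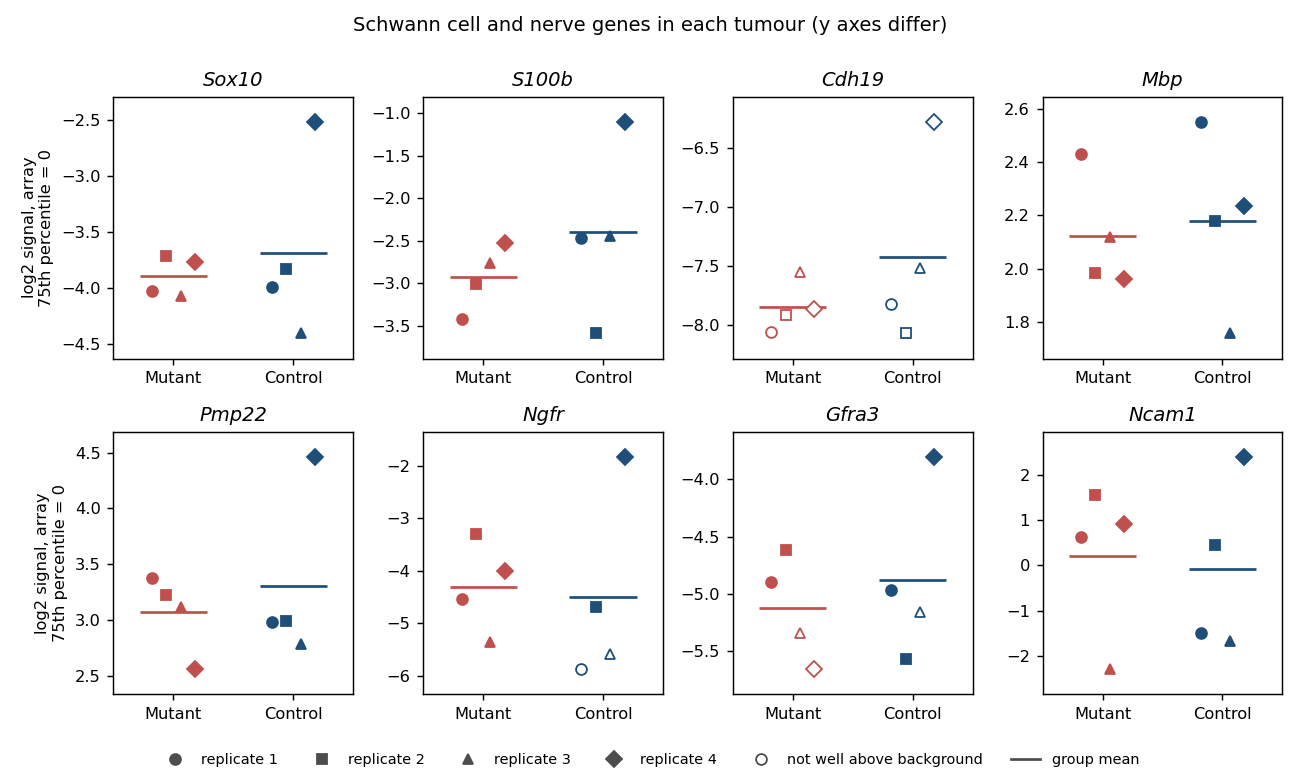
Log2 signal relative to the array's 75th percentile (y, with a different range in each panel) for the 8 genes in Mutant tumours (left, red) and Control tumours (right, blue); symbols give the replicate, open symbols a probe not well above background, and lines the group means. Control 4, the blue diamond, is the highest tumour in every panel except Mbp, and the groups overlap in all panels.

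S100b, a calcium-binding protein used as a marker of Schwann cells, had the smallest unadjusted p among the 7 genes. Its levels were -3.42, -3.01, -2.76 and -2.53 in Mutant 1 to 4 and -2.47, -3.58, -2.44 and -1.11 in Control 1 to 4. Only Control 2 among the Control tumours lay below all Mutant tumours, while the other 3 lay above all of them. The S100b difference was -0.53 with a standard error of 0.48, or 0.694-fold (95% interval -1.64 to 0.59, two-sided exact permutation p = 0.4), and without Control 4 it was -0.10. Adipocytes express S100b too, and 6 of 10 adipocyte markers were measured, at a list level, made the same way, of -0.23 to 1.37 in Mutant tumours and -0.64 to 0.25 in Control tumours. Adipoq, Plin1, Cidec and Pck1 did not pass the filter, and the part of adipocytes was not tested.

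Cdh19, a cadherin of Schwann cell precursors and of Schwann cells around small axons, was not well above background on any of the 8 arrays. Its signal lay between -8.06 and -7.55 in Mutant tumours and between -8.07 and -6.28 in Control tumours, and no fold is given. The highest Cdh19 signal, too, was that of Control 4.

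Mbp, a protein that compacts the myelin sheath, was read by 3 probes that disagreed. The gene is known to make, besides the myelin transcripts, longer golli transcripts that immune cells also express, and the array does not say which probe reads which. The probe that represents the gene (A_52_P604195, designed on NM_001025245) read 2.43, 1.98, 2.12 and 1.96 in Mutant 1 to 4, against 2.55, 2.18, 1.76 and 2.24 in Control 1 to 4. Among the 7 genes Mbp varied least on this probe, with an SD of 0.26 over 8 tumours, which is the median of all genes. The Mbp difference was -0.057 (95% interval -0.50 to 0.38, two-sided exact permutation p = 0.771), and -0.039 without Control 4.

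The 2 other Mbp probes, both designed on NM_010777, were highest in Control 4. Probe A_55_P2889696 read -5.74, -5.07, -5.62 and -5.70 in Mutant 1 to 4, against -6.06, -5.34, -5.58 and -2.42 in Control 1 to 4. Probe A_52_P329451 read -5.20 to -5.60 in Mutant tumours, against -5.42, -5.72, -5.51 and -3.70 in Control 1 to 4. Mutant 3 and Control 3 were not well above background on either of these probes, nor was Control 1 on A_55_P2889696, so no fold of Control 4 over the other tumours is given. Tested by themselves among all probes, the 2 differed by -0.68 and -0.28 (limma adjusted p = 1 for each), and without Control 4 by 0.13 and 0.19.

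Pmp22, a membrane protein of compact myelin that many other cells express as well, was high in the same tumour. It read 3.37, 3.22, 3.12 and 2.56 in Mutant 1 to 4 and 2.98, 2.99, 2.79 and 4.46 in Control 1 to 4. Apart from Control 4 the tumours of both groups spanned less than 1 log2 unit, and Control 4 was 2.91-fold above the mean of the other 3 Control tumours. The Pmp22 difference was -0.24 (95% interval -1.12 to 0.65, two-sided exact permutation p = 0.771), and 0.15 without Control 4. Its other probe, A_55_P2040168, gave -0.36, and 0.07 without Control 4.

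**Figure D2:**
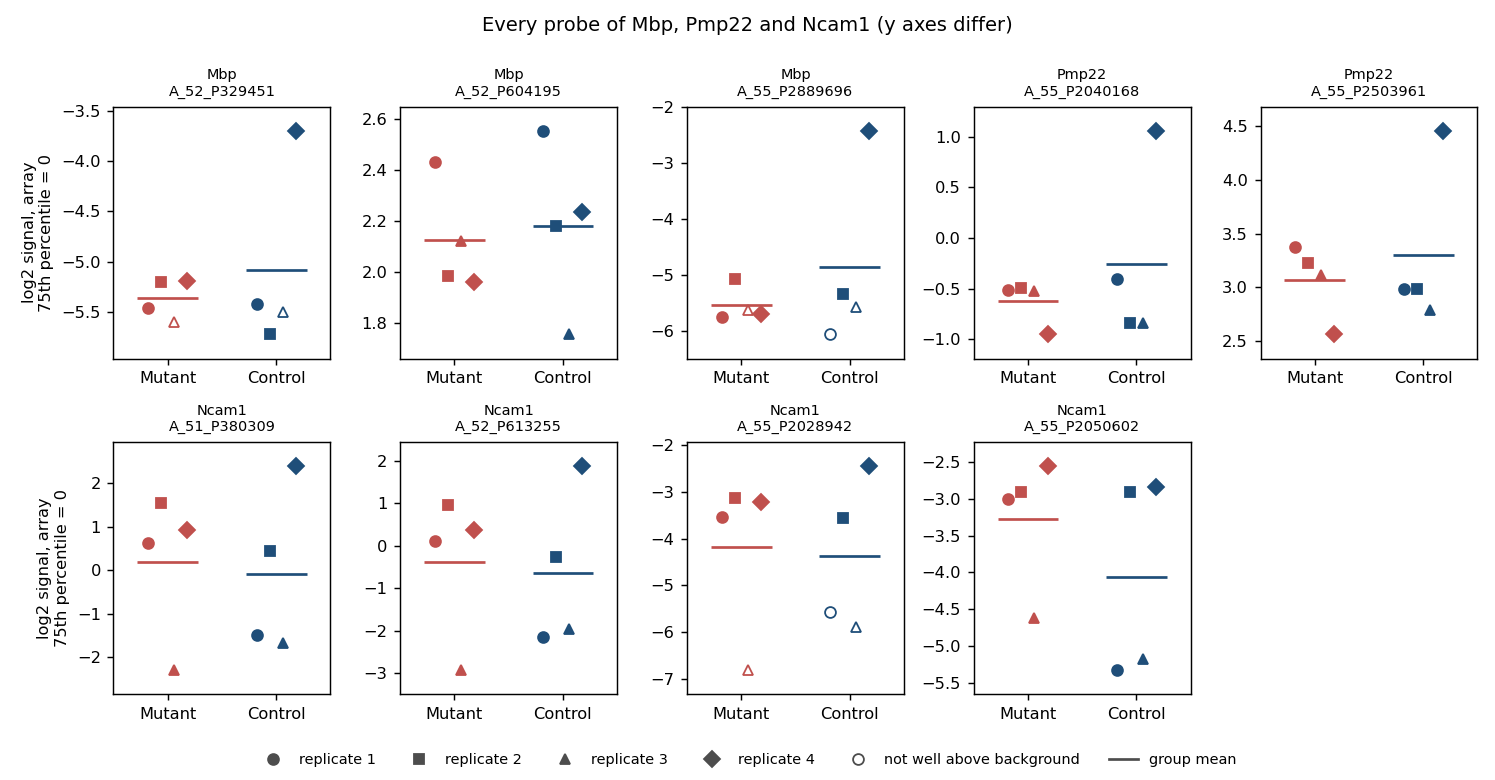
Log2 signal relative to the array's 75th percentile (y, with a different range in each panel) of every probe of Mbp, Pmp22 and Ncam1 in Mutant tumours (left, red) and Control tumours (right, blue), with symbols, open symbols and lines for replicates, probes not well above background and group means. Control 4 is highest on every probe except Mbp A_52_P604195 and Ncam1 A_55_P2050602.

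Ngfr, the p75 receptor that binds all neurotrophins and is carried by immature, repair and non-myelinating Schwann cells, had a wide spread in both groups. It read -4.54, -3.30, -5.36 and -4.0 in Mutant 1 to 4, against -5.86, -4.69, -5.58 and -1.84 in Control 1 to 4. All 4 Mutant tumours were well above background but only Control 2 and Control 4 of the Control tumours were. Control 4 was the highest tumour and Control 1 and Control 3, both not well above background, the lowest. The Ngfr difference was 0.19 with a standard error of 0.90 (95% interval -1.88 to 2.27, two-sided exact permutation p = 0.83). Without Control 4 the difference was 1.08 (95% interval -0.14 to 2.30, limma unadjusted p = 0.0753, adjusted p = 0.89), a larger move than for any other of the 7 genes. Of the Control tumours then left, only Control 2 was well above background, so no fold is given for this difference.

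Gfra3, the co-receptor that lets the ligand artemin act through the receptor Ret, was well above background on 2 Mutant and 3 Control arrays. Its levels were -4.89, -4.61, -5.34 and -5.65 in Mutant 1 to 4 and -4.97, -5.57, -5.15 and -3.81 in Control 1 to 4. Control 4 was the highest of the 8 tumours, and the others of both groups were intermixed. The difference was -0.25 (95% interval -1.17 to 0.67, two-sided exact permutation p = 0.629), and 0.11 without Control 4.

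Ncam1, an adhesion molecule of non-myelinating Schwann cells that regenerating muscle also makes, varied more than 97.2% of all genes. Its levels were 0.62, 1.55, -2.28 and 0.92 in Mutant 1 to 4, against -1.49, 0.44, -1.67 and 2.39 in Control 1 to 4. The tumours fell into 5 with levels above 0, which were Mutant 1, 2 and 4 with Control 2 and 4, and 3 with levels below -1, which were Mutant 3 with Control 1 and 3. The difference was 0.28 with a standard error of 1.12 (95% interval -2.31 to 2.88, two-sided exact permutation p = 0.857), and 1.11 without Control 4. Probe A_52_P613255 ordered the tumours much the same way and differed by 0.26, or 1.09 without Control 4. Probe A_55_P2028942 differed by 0.20, or 0.84 without it, and was not well above background in Mutant 3, Control 1 and Control 3. The fourth probe, A_55_P2050602, also put Mutant 3, Control 1 and Control 3 lowest, but there Control 4, at -2.84, lay below Mutant 4, at -2.56. Its difference was 0.79 (two-sided exact permutation p = 0.286), or 1.19 without Control 4.

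Markers of skeletal muscle split the tumours in part the same way as Ncam1. The list level of 13 of 14 skeletal muscle markers was 1.88, 2.50, -0.76 and 1.72 in Mutant 1 to 4, against -0.65, 0.62, -1.65 and -3.67 in Control 1 to 4. Mutant 3, Control 1 and Control 3 were below 0 for muscle as for Ncam1, while Control 4 had the highest Ncam1 and the lowest muscle level, with Myh1, Myog, Chrng and Ckm not well above background there. The satellite cell gene Pax7 was well above background on none of the arrays. NK cell markers, 8 of 10 of which were measured, were at 0.60, 0.98, -0.98 and 0.65 in Mutant 1 to 4 and at -0.95, -1.93, 0.52 and 1.10 in Control 1 to 4, with Ncr1 and Klrb1c below the filter. The part of muscle in the Ncam1 differences was not tested.

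**Figure D3:**
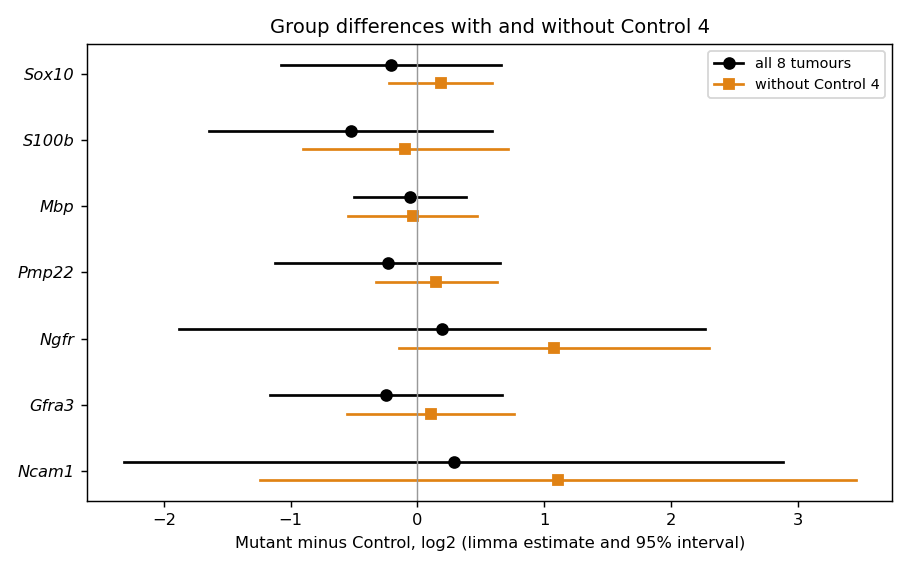
Mutant minus Control difference in log2 signal (x) with its 95% interval from limma for the 7 measured genes (rows), over all 8 tumours (black circles) and without Control 4 (orange squares). Every interval spans 0, and the Ngfr and Ncam1 estimates move to 1.08 and 1.11 without Control 4.

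Setting Control 4 beside the other tumours, 6 of the 7 genes had their highest level there. Beside the 22.4% of all genes that were highest there, Sox10, S100b, Ngfr and Pmp22 were at least 2-fold above every other tumour, a size that 3.77% of 16067 genes reached. This comparison was chosen after the values were seen and rests on 1 tumour, so it has no test. Against the mean of the other 3 Control tumours, Control 4 was 9.80-fold higher for Ncam1, 3.31-fold for S100b and 2.94-fold for Sox10. For Ngfr 2 of those 3 tumours and for Gfra3 1 of them were not well above background. Against the next highest tumour, Mutant 2, which was well above background for both, Control 4 was 2.76-fold higher for Ngfr and 1.75-fold for Gfra3.

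The levels of the measured genes were compared across the 8 tumours in 21 pairs. Among the 15 pairs without Mbp, Pearson's r ran from 0.22 to 0.91 with a median of 0.69, and 4 of the 21 pairs passed (exact permutation over pairings, two-sided, adjusted p under 0.05 over the pairs). They were Ngfr with Ncam1 (r = 0.91, rho = 0.90), Sox10 with Ngfr (r = 0.90, rho = 0.81), Pmp22 with Gfra3 (r = 0.90, rho = 0.79) and Sox10 with Ncam1 (r = 0.76, rho = 0.90). By permutation, the raw p of r was 0.001, 0.002, 0.005 and 0.006, and the adjusted p 0.019, 0.022, 0.029 and 0.029, in that order. The raw p of rho was 0.005, 0.022, 0.028 and 0.005 and its adjusted p 0.048, 0.147, 0.147 and 0.048 by permutation. With the 2 tumours farthest from the median of the first gene left out, r was 0.89 for Ngfr with Ncam1, 0.81 for Sox10 with Ngfr, 0.80 for Sox10 with Ncam1 and 0.48 for Pmp22 with Gfra3. The pairs include values not well above background, those of Ngfr in Control 1 and Control 3 and of Gfra3 in Control 3, Mutant 3 and Mutant 4.

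For most other pairs r was below 0 once 2 tumours were left out, and Control 4 was 1 of these 2 in 14 of the 15 pairs without Mbp. Over the 15 pairs without Mbp the median r was -0.04 with 2 tumours left out and 0.12 without Control 4. S100b with Pmp22 moved most, with r = 0.59 over 8 tumours and r = -0.83 over the remaining 6. Mbp, on the probe that represents it, had r between -0.07 and 0.33 in its 6 pairs, and between -0.29 and 0.50 without Control 4. The 2 other Mbp probes, which were highest in Control 4, were not part of these pairs. Each row of the slide held only 4 tumours, too few for a correlation within rows.

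Genes with the most similar pattern to each nerve gene were sought by Pearson's r over the 8 tumours among all measured genes with a proper name. For Sox10 they were Rbm12b1, Mmp11 and Pdlim4 (r = 0.99, 0.98 and 0.98), and for Ngfr they were Eng, Jam3 and Armcx1 (r = 0.99 for each). For Ncam1 they were Unc45b, Klf8 and Usp13 (r = 0.99, 0.99 and 0.98), for Pmp22 Tspan15, Duoxa1 and Pex5l (r = 0.99, 0.98 and 0.97), and for Gfra3 Scg3, Dok1 and Steap3 (r = 0.99, 0.98 and 0.98). For S100b they were Il22ra1, Git2 and Klra1 (r = 0.97, 0.97 and 0.96) and for Mbp Slc7a4, Synrg and Phyhd1 (r = 0.98, 0.94 and 0.93). These genes were picked for their r, which is a description over 8 points. On the probes that represent them, all the nerve genes here but Mbp were highest in Control 4.

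Many other genes of Schwann cell identity were highest in the same single tumour. Of 17 such genes 13 were measured, 5 were above 0 and 8 below, 0 passed, and the median difference was -0.05, or 0.06 without Control 4. That tumour was the highest for 8 of the 13, against 22.4% of all genes. Lgi4, a secreted protein that Schwann cells need for myelination, read 0.73, 0.70, -0.63 and -0.15 in Mutant 1 to 4, against -0.65, -0.75, -0.71 and 2.08 in Control 1 to 4. Control 4 was highest for Lgi4 by 1.35 log2 units, and the other 3 Control tumours were the lowest of the 8. The Lgi4 difference was 0.17 (95% interval -1.41 to 1.75, two-sided exact permutation p = 0.743), and 0.87 without Control 4. Art3, a membrane protein listed here with Schwann cell identity, read -4.16, -4.50, -4.65 and -4.27 in Mutant 1 to 4, against -5.10, -4.41, -4.82 and -2.68 in Control 1 to 4. Control 4 was again highest, by 1.48 log2 units, and the Art3 difference was -0.14, or 0.38 without Control 4.

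Foxd3, an early neural crest factor, was well above background on 3 Mutant and 2 Control arrays and highest in Control 4 too, and it differed by -0.05, or 0.17 without Control 4. Erbb3, the neuregulin receptor on which Schwann cells depend, was well above background on none of the arrays, and neither was Ptprz1. The genes of smallest p in the list were Cadm4, at -0.39, Cmtm5, at -0.52, Sema3b, at -0.27, and Matn2, at 0.19 (limma adjusted p = 1 for each). Without Control 4 they were at -0.41, -0.19, -0.041 and 0.082, and Cmtm5 and Sema3b were highest in that tumour. Not every gene of the list was: Gpm6b, Tfap2a, Matn2, Cadm4 and Cryab were not highest in Control 4, and Gpm6b and Tfap2a were lowest there. Egfl8 was highest in Control 4 by only 0.003 log2 units.

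**Figure D4:**
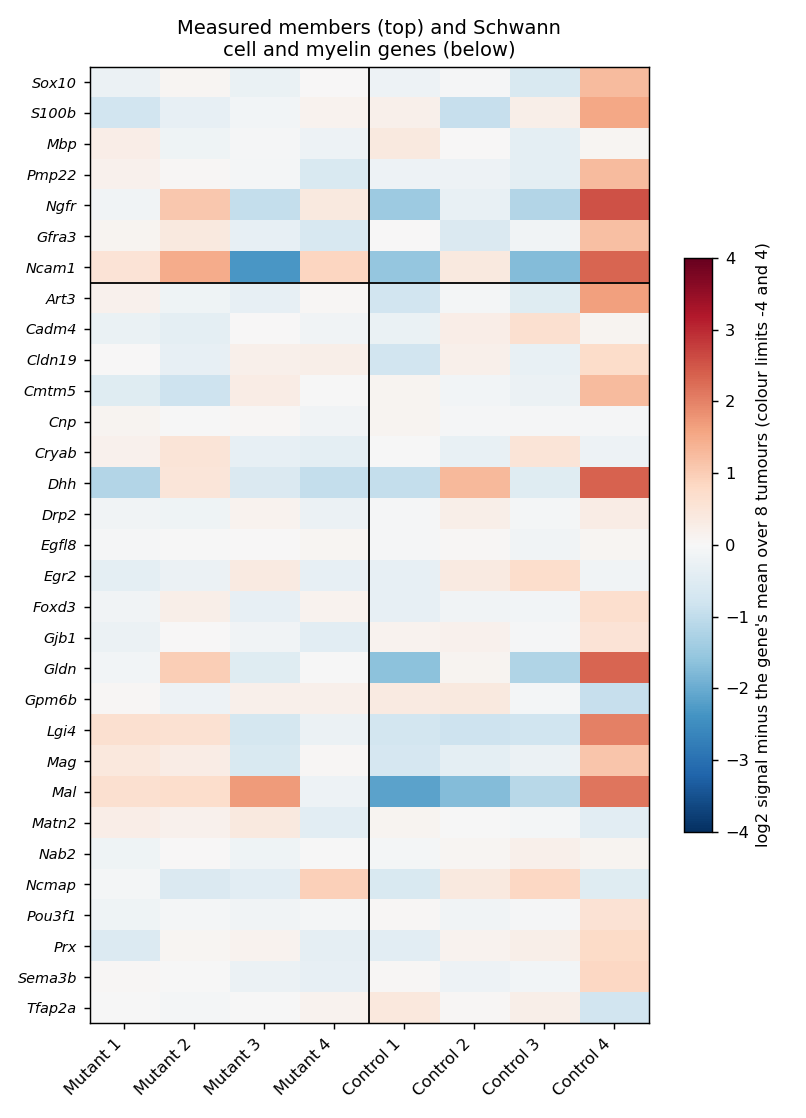
Log2 signal of each gene minus its mean over the 8 tumours (colour, blue low and red high, limited to -4 and 4) for the 7 measured genes (top) and measured Schwann cell identity and myelin genes (below), with Mutant tumours in the left 4 columns and Control tumours in the right 4. The Control 4 column is red for most rows, most of all for Ngfr, and Mutant 2 is the next highest for Gldn and Ngfr.

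Myelin genes gave the same picture in part. Of 18 genes 14 were measured, 5 above 0 and 9 below, with a median of -0.18, or -0.10 without Control 4, and 0 calls. In Control 4, 10 of the 14 were highest, against 22.4% of all genes, and 3 were at least 2-fold above every other tumour, against 3.77%. Egr2, Nab2, Ncmap and Cnp were not highest there, and Drp2 was by only 0.03 log2 units. The list level was -0.30, 0.29, -0.06 and -0.24 in Mutant 1 to 4 and -0.62, 0.09, -0.29 and 1.13 in Control 1 to 4. Gjb1, a connexin that myelinating Schwann cells make, had the smallest p, at -1.50, -1.23, -1.42 and -1.69 in Mutant tumours against -1.13, -1.08, -1.32 and -0.72 in Control tumours. Only Control 3 overlapped the Mutant range (difference -0.40, two-sided exact permutation p = 0.0571, limma adjusted p = 1), and the Gjb1 difference was -0.28 without Control 4. Which cells of the tumour gave the Gjb1 signal was not tested. Mal, a raft protein of myelin and of other cells, differed by 1.42, and by 2.37 without Control 4. Dhh, the hedgehog ligand that Schwann cells send to the perineurium, differed by -1.11, or -0.51 without Control 4, and Nab2 by -0.17. Mag, an adhesion molecule of the inner myelin face, differed by 0.09, or 0.47 without Control 4, and Egr2, the transcription factor of myelination, by -0.29.

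Genes of repair and immature Schwann cells were measured for 9 of 17, of which 4 were above 0 and 5 below, with a median of -0.05, or -0.08 without Control 4, and 0 calls. Artn, which encodes the ligand of Gfra3, was 0.615-fold, at 1.40, 1.96, 1.12 and 0.73 in Mutant 1 to 4 against 2.03, 1.32, 2.29 and 2.37 in Control 1 to 4. The groups overlapped through Control 2, which lay below Mutant 1 and Mutant 2 (difference -0.70, 95% interval -1.44 to 0.04, two-sided exact permutation p = 0.114, limma adjusted p = 1), and the Artn difference was -0.58 without Control 4. Notch1 differed by -0.64, or -0.27 without Control 4, the injury factor Jun by -0.32 and Id2 by -0.17. Sox2 and Olig1 were well above background on none of the arrays, and Gfap and Gdnf did not pass the filter.

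Ligands and receptors of the neurotrophin and GDNF families had a median of -0.03, or -0.05 without Control 4, over 14 of 20 genes, 6 above 0 and 8 below, with 0 calls. Control 4 was the highest tumour for 6 of the 14, against 22.4% of all genes. Their list level there was 0.07, below Control 1, at 0.20, Mutant 3, at 0.16, and Control 2, at 0.12. The sorting receptor Sort1 differed by 0.66, or 0.23 without Control 4, Ntrk2 by -0.42, or -0.10 without it, and Lingo1 by -0.42, or -0.27 without it. Ret, the signalling receptor that Gfra3 presents artemin to, did not pass the filter. Of 9 neuregulin and ERBB genes 6 were measured, 3 above 0 and 3 below with 0 calls, and the median was -0.01. Control 4 was the highest tumour for 0 of these 6. The list level was -0.16 in Control 4, and only Control 3, at -0.32, was lower. The axonal ligand Nrg1 differed by -0.17, or -0.30 without Control 4, Nrg2 by -0.20, or -0.36 without it, and the protease Bace1, which cleaves neuregulin, by 0.18, while Nrg4, well above background on 3 Mutant and 1 Control arrays, differed by 0.77.

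Transcripts of neurons are found mostly in distant cell bodies. Of 25 axon and neuron genes 16 passed the filter, 9 above 0 and 7 below, with a median of 0.03, or 0.08 without Control 4, and 0 calls. The neurofilament genes Nefl and Nefm did not pass, and Nefm, Syt1, Npy and Scn9a were well above background on none of the arrays. Tubb3, a neuronal tubulin that cancer cells may also express, differed by -0.10, or 0.15 without Control 4. Chat differed by -0.83, Uchl1 by 0.55, Chga, well above background on 2 Mutant arrays, by -0.92, and Prph by 0.54 (limma adjusted p = 1 for each). Without Control 4 these were -0.50 for Chat, 0.72 for Uchl1, -0.40 for Chga and 0.19 for Prph. The level of the list was highest in Control 4, at 0.58, and in Mutant 2, at 0.45.

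All 12 genes linked to the perineurium and endoneurium were measured, 5 above 0 and 7 below, with a median of -0.09, or 0.18 without Control 4, and 0 calls. The groups did not overlap in 2 of the 12, against 1.42% of all genes. Osr2, a transcription factor of mesenchyme, read 1.92, 1.97, 1.90 and 2.29 in Mutant 1 to 4 against 0.31, 1.38, 1.20 and 1.49 in Control 1 to 4, a difference of 0.92. Sox9 read 0.40, 0.26, 0.55 and 0.45 in Mutant 1 to 4 against 1.60, 0.69, 0.64 and 0.98 in Control 1 to 4, a difference of -0.56. For each the two-sided exact permutation p was 0.0286, the smallest that 4 against 4 tumours allow, and the limma adjusted p was 1. The glucose transporter Slc2a1 differed by -0.66 and Cldn1, a tight junction protein, by 0.61, or 1.07 without Control 4, and none of these 4 is restricted to nerve. At an unadjusted p under 0.05, limma gave 2 of the 12 genes in this list, 1 of the 14 myelin genes and 0 in the other nerve lists, against 2.91% of all genes.

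The list level of fibroblast markers was also highest in Control 4, and 9 of the 12 markers were highest there, against 22.4% of all genes. All 12 were measured, and their list level was 0.32, 1.17, -1.02 and -0.25 in Mutant 1 to 4 against -0.77, -0.39, -1.33 and 2.27 in Control 1 to 4. The 2 highest tumours, Control 4 and Mutant 2, were also the 2 highest for Sox10, Ngfr, Ncam1 and Gfra3. Postn, Lum, Fap, Thy1, Col3a1 and Col1a2 were at least 2-fold above every other tumour in Control 4. Pdgfra, Pdgfrb and Dpt were not highest there, and Pdgfrb, at 3.26, was lowest in Control 4. The list levels of epithelial, NK cell, oligodendrocyte and melanocyte markers were highest in Control 4 as well, at 0.94, 1.10, 0.65 and 0.39. Ngfr and Pmp22 are known to be made by fibroblasts too, and the part of these cells in the results was not tested. The arrays lay on 1 slide in 2 rows with 2 Mutant and 2 Control tumours each. Within the row that holds Control 4, the differences were -0.46 for Sox10, -0.87 for S100b, -0.97 for Ngfr, -0.78 for Pmp22, -1.04 for Ncam1, -1.01 for Gfra3 and 0.044 for Mbp. Within the other row they were 0.044 for Sox10, -0.18 for S100b, 1.35 for Ngfr, 0.31 for Pmp22, 1.61 for Ncam1, 0.51 for Gfra3 and -0.16 for Mbp.

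**Figure D5:**
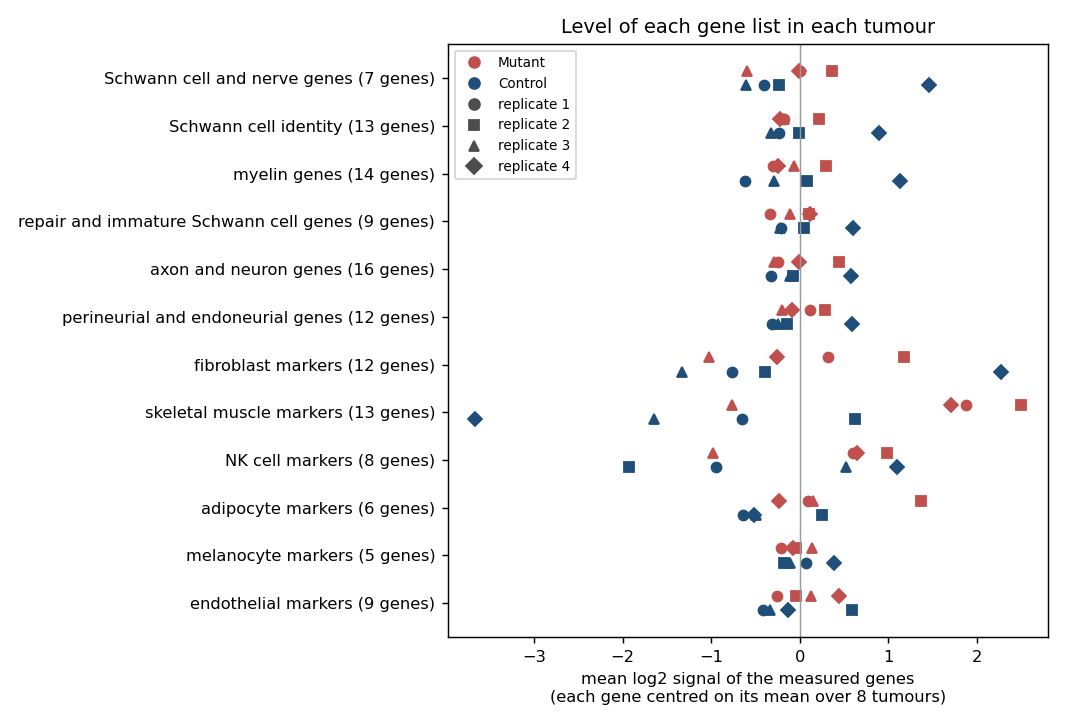
Level of each gene list in each tumour (x, mean over its measured genes of the log2 signal minus that gene's mean over 8 tumours), with Mutant tumours in red above Control tumours in blue and symbols for replicates. Control 4, the blue diamond, is the highest tumour for the list of 7 measured nerve genes and for the Schwann cell identity, myelin, repair, axon, perineurial, fibroblast, NK cell and melanocyte lists, and the lowest for skeletal muscle markers. The neurotrophin and GDNF list and the neuregulin and ERBB list, where Control 4 is not the highest tumour, are not drawn.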

How the data were processed

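Total RNA of 8 tumours was labelled with Cy3 and hybridised to Agilent mouse arrays in 1 colour, per the labels' protocols. The intensity values deposited by the authors came from Feature Extraction 10.7.3.1 per the file headers, while the submitters' processing notes name 9.1. The deposited processed signal is a linear intensity after background subtraction and spatial detrending within the array, with no scaling between arrays, and the deposited flags (other) have no unit. The deposited value table equals the mean processed signal of a probe's spots within 0.01% for 99.5% of probes on each array, on a linear scale with column medians of 52.8 to 61.8, so no centring or direction is involved. RefSeq accessions, stripped of versions, were looked up in a GRCm38.p6 gene table, which named 58.3% of 56605 probes. Coordinates are left out because the array was designed on a different build.

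Flagged outlier spots were left out (66 to 117 per array), a probe's spots were averaged, and log2 signals were centred on the array's 75th percentile, 575.9 to 740.7 before the log. Groups were fitted with limma 3.58.1 in R 4.3.3 with group as the only term, p-values were adjusted by Benjamini and Hochberg over 16068 genes, and single values were compared by exact permutation over 70 arrangements. The series' design text states 4 mice a group, so each tumour counted as 1 replicate. Genes named by rule are every member, the fixed defining genes, up to 4 genes of smallest p in each list, and the 3 genes most like each measured member by r, without gene models that lack a proper name. Some genes of the lists, defining genes among them, are not reported here by name, and the counts, medians and levels of the lists include them. The members and lists were chosen with earlier results of these data known. The comparisons of Control 4 with other tumours, and the other genes they name, were chosen after values were seen. Normexp ran on median spot signals, since no mean spot signal was used. The fit was tested on simulated data. Arrays have no read depth, and the 4 tumours in a group limit the precision. Same-numbered Mutant and Control tumours had deviations correlated at 0.08, -0.31, 0.05 and -0.31. These 4 values had no common sign and cannot settle whether the numbers pair the tumours. The main fit used no pairing. Python 3.11.15 with pandas 2.3.3 read the files.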

Additional observations from a re-analysis of the deposited data

Results flagged for a closer look

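Within groups of 4 tumours, 6 values lay far from the rest, with a gap to the next tumour beyond Dixon's 95% critical value, in 96 groups of 4 examined. Chance flags about 1 in 20 such groups. Control 4 was high at -3.70 for Mbp probe A_52_P329451, at 4.46 for Pmp22 probe A_55_P2503961, and at -2.79 for the neuroendocrine gene Chga. Mutant 4 was low at -0.95 for Pmp22 probe A_55_P2040168. Mutant 3 was low at -6.80 for Ncam1 probe A_55_P2028942, where it was not well above background, and high at -0.74 for the neurotrophin receptor Ntrk2.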

How the results depend on the processing

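Under 20 alternatives limma called 0 genes and 0 of the nerve genes. At an unadjusted p under 0.05 the count of genes was 467, and 1280 with array weights, 371 with the replicate number as a block, and 195 to 972 with 1 tumour left out. S100b stayed below 0 in all its 22 alternatives. The other signs turned: with 1 tumour left out the differences ranged from -0.45 to 0.18 for Sox10, -0.41 to 0.15 for Pmp22, -0.48 to 0.11 for Gfra3, -0.20 to 0.066 for Mbp, -0.24 to 1.11 for Ncam1, -0.26 to 1.08 for Ngfr and -0.92 to -0.10 for S100b. Sox10, Pmp22 and Gfra3 turned without Control 4, Mbp without Control 1, and Ncam1 and Ngfr without Mutant 2, Control 1 or Control 3. Within slide row 1 Sox10 was at 0.044, Pmp22 at 0.31 and Gfra3 at 0.51, and within row 2 Mbp was at 0.044, Ncam1 at -1.04 and Ngfr at -0.97. Ngfr was at -0.13 after normexp and Sox10 at 0.016 with array weights. The cause of these turns was not tested. With a filter on all 8 arrays Ngfr and Gfra3 dropped out, and signals near background limit them and Cdh19.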

Other observations

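Other cells of the tumour bed were measured beside the nerve genes, with 0 limma calls in each list and, at an unadjusted p under 0.05, 6 skeletal muscle, 2 epithelial and 1 pericyte and smooth muscle marker, of 13, 6 and 9 measured, against 2.91% of all genes. All 9 endothelial markers were measured, 8 above 0, with a median difference of 0.14 and levels of -0.25 to 0.45 in Mutant and -0.41 to 0.59 in Control tumours. All 9 pericyte and smooth muscle markers were measured, 8 above 0, with a median of 0.27, or 0.66 without Control 4, and Des, a gene of skeletal muscle too, at 2.10. Of 8 epithelial markers 6 were measured, 1 above 0, with a median of -0.50, or -0.29 without Control 4. Of 13 measured skeletal muscle markers all were above 0, with a median of 2.86, or 1.79 without Control 4. The medians were 0.66 for 8 NK cell markers, 0.34 for 6 adipocyte markers, -0.13 for 5 melanocyte markers and -0.01 for 12 fibroblast markers. Without Control 4 these were 1.12, 0.39, 0.09 and 0.95. With 1 tumour left out at a time, the NK cell median ranged from -0.040, without Control 2, to 1.18, without Mutant 3. The adipocyte median then ranged from 0.12, without Control 1, to 0.44, the fibroblast median from -0.43, without Mutant 2, to 0.95, and the melanocyte median from -0.24 to 0.09. The endothelial median ranged from -0.017, without Mutant 4, to 0.44 and the pericyte and smooth muscle median from 0.025, without Control 1, to 0.66. Of 9 oligodendrocyte markers, several of which Schwann cells share, 7 were measured, with a median of -0.23, or -0.13 without Control 4, and Olig2 and Opalin were not well above background on any array.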
